A study of Mus musculus with 12 samples.

Results

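The tumour necrosis factor (TNF) superfamily comprises trimeric, mostly membrane-bound ligands, and its receptor superfamily the proteins that bind them. The genes described here were taken by name. They are those whose symbol begins with Tnfrsf or Tnfsf and a number, together with Tnf, Lta, Ltb, Ltbr, Fas, Fasl, Cd40, Ngfr, Eda, Edar, Eda2r, Traf1, Traf2 and Traf3. Of 18876 genes listed in at least 1 library, 45 met that rule: 16 ligands, 7 receptors with a death domain, 15 receptors that signal through TRAF proteins, 4 decoy or other receptors, and 3 TRAF adaptors.

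Ligand binding clusters the receptors at the cell surface. Receptors with a death domain can assemble caspase-activating complexes or activate NF-kB, a family of transcription factors that induces inflammatory genes. Most of the other receptors recruit TRAF proteins directly and activate NF-kB and stress kinases, and decoy receptors bind ligand without a complete signalling tail. In the brain, microglia and astrocytes are known sources of TNF, and cells of the oligodendrocyte lineage carry receptors for it.

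RNA-seq was done on wild-type primary oligodendrocyte progenitor cells from mouse brain, the glial precursors of myelinating cells. There were 4 groups of 3 libraries, and every group was collected after 12 h. The stattic group received 50 µM hemin, 10 ng/mL interleukin-10 (IL-10) and 2.5 µM stattic, an inhibitor of the transcription factor STAT3. The IL-10 group received 50 µM hemin and 10 ng/mL IL-10, a cytokine that signals through STAT3. The hemin group received 50 µM hemin, the oxidised form of heme, and vehicle cells received DMSO. No group received IL-10 or stattic without hemin, so each can be compared only on top of hemin. The labels do not state that the libraries of a group are separate cultures, and p-values therefore measure the spread between these libraries, which may be technical.

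Library totals were 9404448 to 10266653 expected counts. The progenitor markers were present: Pdgfra was at 313 to 745 CPM (counts relative to the library total after TMM scaling), Cspg4 at 64.9 to 125 CPM and Olig2 at 363 to 644 CPM in vehicle libraries. The 10 progenitor markers summed to 1030 to 2280 CPM in the stattic group, 1520 to 2960 CPM in the IL-10 group, 2060 to 3100 CPM in the hemin group and 4900 to 7060 CPM in vehicle cells. Genes of other cells were present too, with Mbp, a myelin gene, at 1010 to 3340 CPM and Gfap, an astrocyte gene, at 36.4 to 2560 CPM in vehicle libraries. Counts leaned towards short transcripts with hemin: the Spearman correlation, across genes, of transcript length with the difference from the vehicle mean was -0.60 to -0.07 in libraries with hemin, lowest in stattic replicate 3 and hemin replicate 1, and -0.07 to 0.11 in vehicle libraries. In bulk RNA, fewer cells of a type and less RNA per cell cannot be told apart.

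More genes of all kinds were listed in libraries with hemin (16022 to 16899) than in vehicle libraries (15051 to 15369), and the family was no exception. Each stattic library listed 38 or 39 of the 45, IL-10 libraries listed 34 to 42, hemin libraries 37 to 41, and vehicle libraries 27 to 33. Across the 12 libraries, 24 members were listed in every library, and 11 had no count in any vehicle library. A filter on low counts left 26 members for testing among 13967 genes. Tnf, Cd40 and Tnfsf11 had no count in vehicle cells and Ltb had 1, so that these genes passed that filter through the groups with hemin and a difference was built into their passing. Tnfrsf26, Tnfrsf23, Tnfsf13b, Tnfsf18, Tnfsf12 and Tnfrsf11a were also low in vehicle cells, at no more than 0.762 CPM. Tnfrsf1b was at no more than 1.3 CPM there, with 0.286 CPM in vehicle replicate 3. These genes too passed the filter through the groups with hemin. The counts of called or non-overlapping members and the median fold changes over vehicle given below are therefore a description. So are the p-values of all these genes, and none of these values supports anything by itself.

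The 19 members that were not tested never exceeded 1.0 CPM. They were the ligands Fasl, Lta, Tnfsf4, Tnfsf8, Tnfsf10, Tnfsf13, Tnfsf14 and Tnfsf15, the receptors Edar, Tnfrsf4, Tnfrsf8, Tnfrsf9, Tnfrsf11b, Tnfrsf13b, Tnfrsf13c, Tnfrsf17, Tnfrsf18 and Tnfrsf25, and the adaptor Traf1. Tnfrsf17 and Tnfrsf8 had 1 count each over the 12 libraries. Tnfrsf9, a costimulatory receptor of T cells, had 4 counts over the stattic libraries, 6 over the IL-10 libraries, 15 over the hemin libraries and 0 over the vehicle libraries. Against a floor of 3 counts over the vehicle group, 0.0931 CPM, the level of Tnfrsf9 was at least 1.57-fold higher in the stattic group, at least 2.25-fold higher in the IL-10 group and at least 5.4-fold higher in the hemin group. Such floors and the counting intervals below cover counting error only.

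Per transcript length, as FPKM, the receptors were the most abundant members in vehicle cells. Tnfrsf12a, the receptor Fn14 for the ligand TWEAK, was at 41.7 ± 23.6 FPKM (SD, n = 3), and Tnfrsf21, the death receptor DR6, was at 39.7 ± 6.53 FPKM. Tnfrsf1a, the widely expressed receptor TNFR1, was at 27.9 ± 6.32 FPKM, and Traf3, an adaptor that restrains the alternative NF-kB pathway, was at 21.5 ± 0.773 FPKM. Within these 4, each overlapped the next in that order.

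A second group of members lay below them without overlap. Tnfrsf19, the receptor TROY, was at 16.6 ± 0.925 FPKM and Eda2r, a receptor for an ectodysplasin isoform, at 13.8 ± 3.12 FPKM. Ltbr, the lymphotoxin beta receptor, at 8.68 ± 1.1 FPKM, and the adaptor Traf2, at 8.4 ± 0.165 FPKM, came next and again did not overlap Eda2r. Tnfrsf22, Tnfrsf10b, Ngfr and Tnfsf9 followed at means of 1.96 to 3.0 FPKM, below Traf2 without overlap. With hemin, Tnfrsf12a averaged 321 FPKM in the stattic group, 274 FPKM in the IL-10 group and 252 FPKM in the hemin group.

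**Figure D1:**
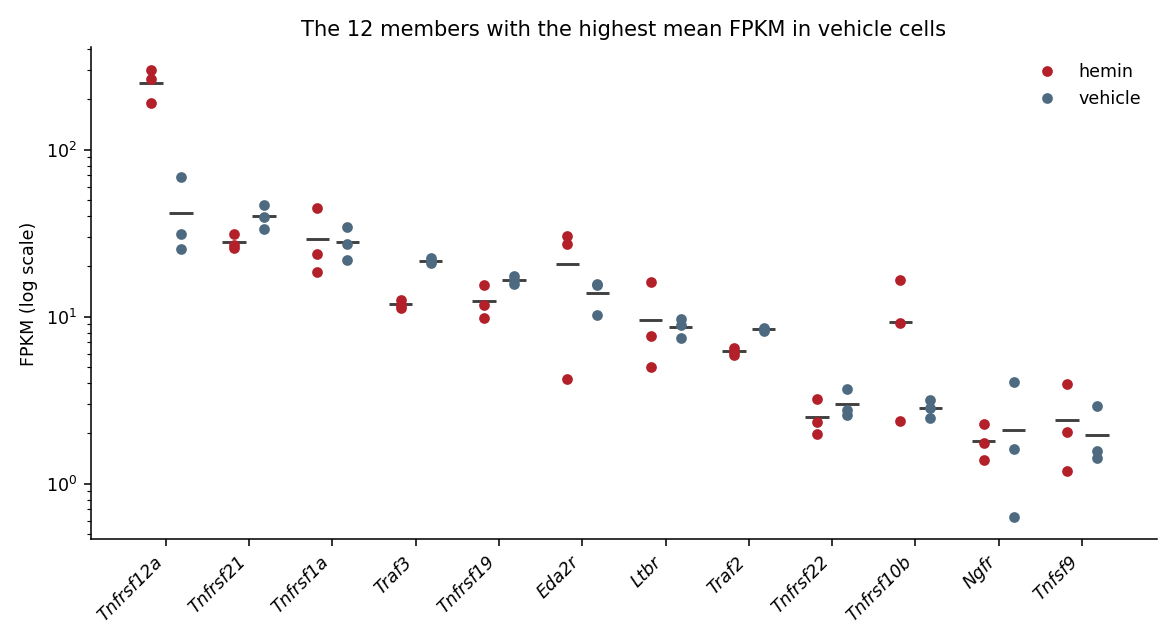
FPKM (log scale) of the 12 members with the highest mean FPKM in vehicle cells, with 1 point per library for hemin and vehicle cells and a bar at each group mean. Tnfrsf12a lay at 189 to 300 FPKM in hemin libraries and 25.2 to 68.7 FPKM in vehicle libraries, while hemin and vehicle libraries overlapped for Tnfrsf1a, Eda2r and Ltbr.

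The stretches just before the transcript start of 5 members that rose with hemin are printed here. Whether these genes share a regulator was not tested. They are the 250 bases upstream of the start, read 5′ to 3′ on the gene's own strand, from the RefSeq annotation of GRCm38.p6, in which 37 of the 45 members had an entry. Capitals mark matches, on either strand, to a kappa-B consensus, to the AP-1 site TGANTCA, to the antioxidant response element core TGACNNNGC or to the heat shock element core GAANNTTC. Of 32851 promoters of that length, 7.25% held the kappa-B consensus, 6.75% the AP-1 site, 10.2% the antioxidant core and 6.69% the heat shock core.
Tnfrsf12a, chr17:23677450-23677699, minus strand: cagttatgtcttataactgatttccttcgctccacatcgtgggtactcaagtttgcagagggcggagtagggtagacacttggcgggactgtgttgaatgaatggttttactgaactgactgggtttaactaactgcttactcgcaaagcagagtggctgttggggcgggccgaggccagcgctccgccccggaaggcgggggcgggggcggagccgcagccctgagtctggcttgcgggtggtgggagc
Tnf, chr17:35202008-35202257, minus strand: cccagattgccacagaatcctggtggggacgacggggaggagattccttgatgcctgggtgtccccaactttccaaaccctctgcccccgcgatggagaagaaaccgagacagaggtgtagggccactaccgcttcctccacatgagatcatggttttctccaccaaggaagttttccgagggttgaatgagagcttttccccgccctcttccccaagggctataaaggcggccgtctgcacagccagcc
Ltb, chr17:35194257-35194506, plus strand: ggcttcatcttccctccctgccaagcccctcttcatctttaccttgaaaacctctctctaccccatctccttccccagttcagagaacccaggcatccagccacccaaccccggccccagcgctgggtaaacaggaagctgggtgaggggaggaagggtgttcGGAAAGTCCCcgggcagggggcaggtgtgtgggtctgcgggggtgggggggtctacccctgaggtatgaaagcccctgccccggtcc
Fas, chr19:34290409-34290658, plus strand: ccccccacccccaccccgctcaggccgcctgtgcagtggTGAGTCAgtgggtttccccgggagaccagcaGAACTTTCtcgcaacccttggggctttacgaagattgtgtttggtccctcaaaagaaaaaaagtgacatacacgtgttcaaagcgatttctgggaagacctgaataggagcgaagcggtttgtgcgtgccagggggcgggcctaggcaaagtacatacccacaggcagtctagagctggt
Tnfsf13b, chr8:10006383-10006632, plus strand: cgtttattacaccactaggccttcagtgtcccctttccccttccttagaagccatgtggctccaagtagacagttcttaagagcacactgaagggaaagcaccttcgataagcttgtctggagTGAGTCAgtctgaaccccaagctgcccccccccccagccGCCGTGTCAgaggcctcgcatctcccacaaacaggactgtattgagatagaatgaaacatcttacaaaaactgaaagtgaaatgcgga

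Ltb held a kappa-B match 87 bases before its start. Fas held an AP-1 match 211 bases before its start and a heat shock match 180 bases before it. The downstream of 2 annotated starts of Tnfsf13b had an AP-1 match at 127 bases and an antioxidant match at 88 bases. The windows of Tnf and Tnfrsf12a had no match to these 4 motifs, nor did those of Tnfrsf1b, Tnfrsf23 and Tnfsf11. Members not called higher held matches too. Traf3 held a kappa-B match 10 bases before its start, and the windows of Tnfrsf8, Tnfrsf9 and Tnfrsf25, members too low to test, held the kappa-B consensus too. Among others not called higher, Tnfsf13 and Tnfsf14 held AP-1 matches, Fasl and Tnfsf8 heat shock matches, and Eda2r and Traf2 antioxidant matches. Tnfsf18, called in the IL-10 group, held an antioxidant match 25 bases before its start. A match is a stretch of letters, and its absence says only that the letters are not in this window.

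Hemin was compared with vehicle to ask what it changed in these cells. Against vehicle, 10 of the 26 tested members rose with hemin and 0 fell by edgeR's quasi-likelihood test (Benjamini-Hochberg adjusted p under 0.05), 13 having an unadjusted p under 0.05 (35.4% of all genes). Of all genes tested, 20.9% were called, 11.7% higher and 9.15% lower. The ligands Tnf, Ltb, Tnfsf11 and Tnfsf13b rose, as did the receptors Tnfrsf12a, Tnfrsf1b, Cd40, Fas, Tnfrsf23 and Tnfrsf26. The groups did not overlap in 15 members, 12 higher and 3 lower with hemin, which is so for 50.1% of all genes tested (25.6% higher, 24.5% lower). The median log2 fold change was 1.63 over the tested members and 0.03 over all genes tested. The median of the members includes those that passed the filter through the groups with hemin, so it does not measure a rise of the family. In a fit to the hemin and vehicle libraries alone, in which Tnf, Cd40, Tnfsf11, Ltb and Tnfrsf26 did not pass the filter on low counts, 7 of 19 tested members rose and 1, Traf3, fell. Of 13320 genes tested in that fit, 4346 were called. Of the members that rose there, Tnfrsf1b, Tnfrsf23, Tnfsf12 and Tnfsf13b also passed the filter through the hemin libraries.

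The IL-10 and stattic groups were each set against the same 3 vehicle libraries, so the 3 comparisons with vehicle are not independent. In the IL-10 group 10 members rose and 0 fell, where 21.0% of all genes were called, 12.1% higher and 8.81% lower. In the stattic group 9 members rose and 0 fell, where 24.9% of all genes were called, 14.7% higher and 10.2% lower. Tnf, Ltb, Tnfsf11, Tnfsf13b, Tnfrsf12a, Tnfrsf1b, Cd40, Fas and Tnfrsf23 were called in all 3 comparisons. The stattic group did not overlap vehicle in 14 members, 12 higher and 2 lower (41.1% of all genes, 21.5% higher and 19.6% lower), nor did the IL-10 group, with 12 higher and 2 lower (49.2% of all genes, 24.9% higher and 24.3% lower). By this fit Tnfrsf26 was called in the hemin group and Tnfsf18 in the IL-10 group, other fits called them in further groups, and neither was called between groups that both received hemin. Median log2 fold changes of the tested members were 1.63 in the stattic group and 1.54 in the IL-10 group, against 0.10 and 0.00 over all genes. These medians too include the members that passed the filter through the groups with hemin.

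**Figure D2:**
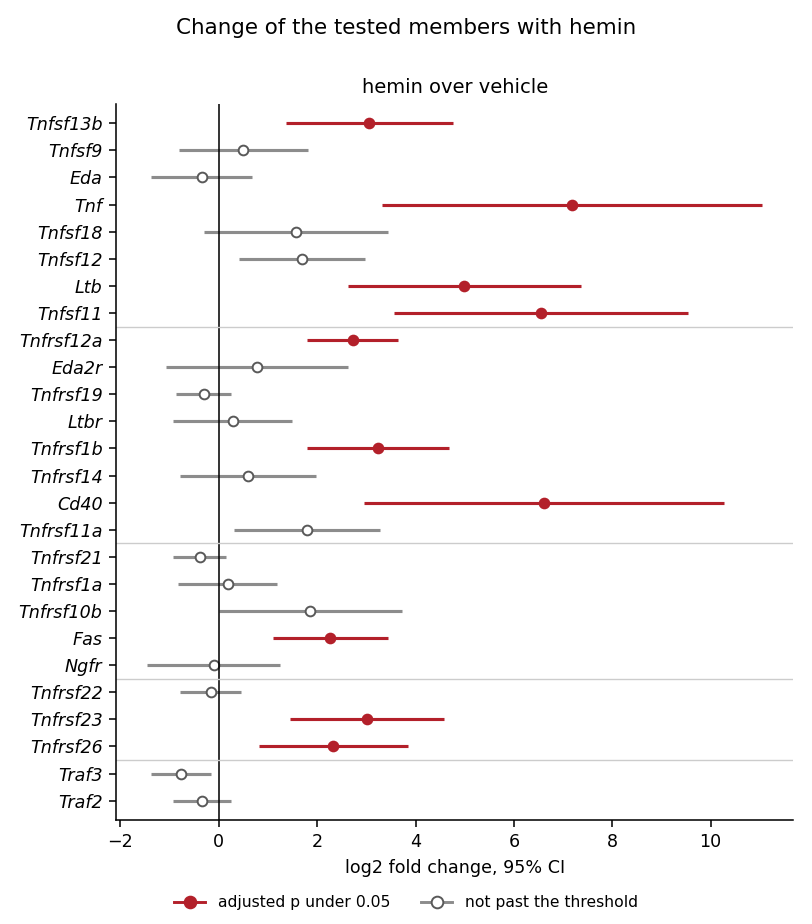
Log2 fold change of hemin over vehicle with its 95% confidence interval (x axis) for each of the 26 tested members (y axis), in blocks from top to bottom of ligands, TRAF-binding receptors, death domain receptors, decoy or other receptors, and TRAF adaptors. Filled red points passed an adjusted p of 0.05: 10 members, all to the right of 0, of which Tnf at 7.19 lay farthest right.

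Among the ligands, Tnf, the founding inflammatory cytokine of the family, was at 1.26, 1.47 and 0.12 CPM in stattic replicates 1, 2 and 3 and at 1.29, 0.842 and 0.808 CPM in the IL-10 replicates. It was at 3.77, 1.64 and 0.1 CPM in the hemin replicates and had no count in any vehicle library. Every library with hemin thus held Tnf reads and no vehicle library did, but hemin replicate 3 and stattic replicate 3 were close to the limit of detection. Against the vehicle floor, Tnf was at least 10.6-fold higher in the stattic group, at least 10.5-fold higher in the IL-10 group and at least 19.8-fold higher in the hemin group (27, 28 and 55 counts against 0). The edgeR adjusted p was 0.0325 in the stattic group, 0.0353 in the IL-10 group and 0.0178 in the hemin group.

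Ltb encodes lymphotoxin beta, which anchors lymphotoxin alpha in a membrane complex. It was at 0.524, 2.62 and 1.8 CPM in the stattic replicates, 0.432, 0.421 and 1.51 CPM in the IL-10 replicates and 0.694, 1.84 and 1.6 CPM in the hemin replicates, against 0, 0.0914 and 0 CPM in the vehicle replicates. No library with hemin overlapped the vehicle libraries, which held 1 Ltb count in all. The ratio to vehicle was 52.9 in the stattic group (95% counting interval 9.02 to 2130), 25.9 in the IL-10 group (4.2 to 1060) and 44.3 in the hemin group (7.52 to 1790). Adjusted p by edgeR was 0.00658 in the stattic group, 0.0228 in the IL-10 group and 0.00923 in the hemin group.

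In GRCm38.p6 the genes Ltb, Tnf and Lta are direct neighbours, with no protein-coding gene between them. Lta, the gene of lymphotoxin alpha, had 7 counts over the 12 libraries and was not tested.

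Tnfsf11, the ligand RANKL that drives osteoclast formation, was at 0.629, 1.05 and 0.96 CPM in the stattic replicates, 0.108, 0.632 and 1.21 CPM in the IL-10 replicates and 0.595, 0.82 and 2.1 CPM in the hemin replicates. It had no count in vehicle cells. The lowest library with hemin, IL-10 replicate 1, held about as much as a single read gives. Tnfsf11 was at least 9.4-fold higher in the stattic group (edgeR adjusted p = 0.0123), at least 7.12-fold higher in the IL-10 group (0.0199) and at least 12.6-fold higher in the hemin group (0.00938). Its receptor gene Tnfrsf11a, encoding RANK, did not pass the test in any comparison. Tnfrsf11a ranged from 0.314 to 1.89 CPM in the stattic group, 0.707 to 1.08 CPM in the IL-10 group and 0.615 to 1.39 CPM in the hemin group, against 0.274 to 0.381 CPM in vehicle cells, with a log2 fold change of 1.79 ± 0.68 (SE) and an edgeR adjusted p of 0.0828 for hemin over vehicle.

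Tnfsf13b, the B-cell survival factor BAFF, was at 2.31, 7.33 and 0.84 CPM in the stattic replicates, 4.32, 5.37 and 3.23 CPM in the IL-10 replicates and 2.38, 4.51 and 3.51 CPM in the hemin replicates, against 0.0928, 0.64 and 0.476 CPM in the vehicle replicates. All libraries with hemin lay above all vehicle libraries, stattic replicate 3 only just. The fold over vehicle was 8.47 in the stattic group (edgeR adjusted p = 0.016), 10.4 in the IL-10 group (0.0122) and 8.36 in the hemin group (0.0178). The BAFF receptors were barely detected: Tnfrsf13b had 28 counts, Tnfrsf13c 37 counts and Tnfrsf17 1 count over the 12 libraries.

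Tnfsf18, the ligand of the GITR receptor, was at 4.61, 2.41 and 1.44 CPM in the stattic replicates, 7.99, 3.37 and 0.505 CPM in the IL-10 replicates and 1.78, 2.56 and 0.701 CPM in the hemin replicates, against 0.371, 0.731 and 0.571 CPM in the vehicle replicates. IL-10 replicate 3 lay within the vehicle range although the IL-10 group was called (log2 fold change 2.79 ± 0.86, edgeR adjusted p = 0.0384). The stattic group had a log2 fold change of 2.32 (adjusted p = 0.0675) and the hemin group one of 1.57 (adjusted p = 0.215). Its receptor gene Tnfrsf18 had 19 counts in all.

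The remaining tested ligands were not called. Tnfsf12, which encodes TWEAK, the ligand of the Fn14 receptor, was at 1.05 to 2.88 CPM in the stattic group, 0.707 to 1.51 CPM in the IL-10 group and 1.3 to 2.18 CPM in the hemin group, against 0.278 to 0.762 CPM in vehicle cells. Its log2 fold change for hemin over vehicle was 1.69 (95% CI 0.41 to 2.98), with an edgeR adjusted p of 0.061. Tnfsf9, a costimulatory ligand, and Eda, the ectodysplasin of skin appendage development, had log2 fold changes of 0.50 and -0.35 for hemin over vehicle, with intervals that included 0.

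Among the receptors that signal through TRAF proteins, Tnfrsf12a had the highest mean FPKM and the smallest p-value of the family. It was at 334, 237 and 313 CPM in the stattic replicates, 321, 255 and 134 CPM in the IL-10 replicates and 259, 228 and 153 CPM in the hemin replicates, against 19.5, 53.7 and 24.2 CPM in the vehicle replicates. The lowest library with hemin lay far above the highest vehicle library. The fold over vehicle was 9.07 in the stattic group, 7.28 in the IL-10 group and 6.57 in the hemin group, on the log2 scale 3.18 ± 0.43, 2.86 ± 0.43 and 2.72 ± 0.42 (SE). EdgeR's adjusted p was 0.00104 for stattic, 0.00167 for IL-10 and 0.0019 for hemin, and it passed in every fit that left out 1 library, at a highest value of 0.0142. At 980 bases it had the shortest transcript of the tested members, and it was called in the 3 groups with a correction for transcript length too. Tnfrsf12a was the only family member called in all 3 groups against vehicle under every alternative processing that was run. Tnfrsf1b was called under each of them in the stattic and hemin groups, but not in the IL-10 group.

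Tnfrsf1b encodes TNFR2, the TNF receptor without a death domain. It was at 9.54, 7.02 and 8.64 CPM in the stattic replicates, 6.47, 5.9 and 4.04 CPM in the IL-10 replicates and 17.3, 5.64 and 2.91 CPM in the hemin replicates, against 1.3, 1.1 and 0.286 CPM in the vehicle replicates. Each group with hemin lay above vehicle, the hemin group spanned the other groups with hemin, and hemin replicate 1 stood above the other libraries. The fold over vehicle was 9.26 in the stattic group (edgeR adjusted p = 0.0067), 6.03 in the IL-10 group (0.0183) and 9.48 in the hemin group (0.00697).

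Cd40, a costimulatory receptor of antigen-presenting cells, was at 1.68, 0.105 and 0.48 CPM in the stattic replicates, 1.08, 1.16 and 0.202 CPM in the IL-10 replicates and 2.38, 0.615 and 0.701 CPM in the hemin replicates. Vehicle libraries had no Cd40 count. Stattic replicate 2 and IL-10 replicate 3 held no more than a read or a few reads. Cd40 was at least 8.23-fold higher in the stattic group, at least 8.62-fold higher in the IL-10 group and at least 13.3-fold higher in the hemin group, with edgeR adjusted p of 0.0319, 0.033 and 0.0197.

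Eda2r varied widely between the libraries of a group. It was at 237, 56.8 and 22 CPM in the stattic replicates, 326, 174 and 52.9 CPM in the IL-10 replicates and 143, 130 and 20.2 CPM in the hemin replicates, against 44.3, 63.1 and 63.8 CPM in the vehicle replicates. Replicate 1 was highest and replicate 3 lowest in each group with hemin, and all 3 groups overlapped vehicle. The log2 fold change of hemin over vehicle was 0.77 (95% CI -1.08 to 2.62) and did not pass the test (edgeR adjusted p = 0.551).

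Tnfrsf19 was at 64, 56.8 and 32.9 CPM in the stattic replicates, 56.7, 63.9 and 66.6 CPM in the IL-10 replicates and 42.1, 66.9 and 46.3 CPM in the hemin replicates, against 61.2, 64.2 and 67.4 CPM in the vehicle replicates. Ltbr was at 28.1, 5.55 and 12.6 CPM in the stattic replicates, 30.6, 25.4 and 12.9 CPM in the IL-10 replicates and 33.3, 15.7 and 9.52 CPM in the hemin replicates, against 16.6, 17.8 and 13.9 CPM in the vehicle replicates. Both overlapped vehicle in the 3 groups, and neither passed the test. Tnfrsf14, the receptor HVEM, had a log2 fold change of 0.59 for hemin over vehicle (95% CI -0.78 to 1.97) at 0.524 to 2.91 CPM over all libraries.

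Among the death domain receptors, Fas, the receptor that starts caspase activation on binding Fas ligand, was called. It was at 13.5, 3.25 and 5.88 CPM in the stattic replicates, 10.6, 10.5 and 4.75 CPM in the IL-10 replicates and 13, 7.17 and 11.3 CPM in the hemin replicates, against 2.32, 2.74 and 1.43 CPM in the vehicle replicates. No library with hemin overlapped vehicle, with stattic replicate 2 the closest. The fold over vehicle was 3.48 in the stattic group (edgeR adjusted p = 0.0299), 3.96 in the IL-10 group (0.0231) and 4.83 in the hemin group (0.0132). Fasl, the gene of Fas ligand, had 35 counts over the 12 libraries and was not tested.

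Tnfrsf10b, the mouse death receptor for TRAIL, was at 62.9, 6.28 and 10.2 CPM in the stattic replicates, 62.4, 36.7 and 15 CPM in the IL-10 replicates and 52.3, 28.8 and 7.01 CPM in the hemin replicates, against 7.05, 8.13 and 9.05 CPM in the vehicle replicates. Replicate 1 was the highest in each group with hemin, and only the IL-10 group lay wholly above vehicle. The log2 fold change over vehicle was 1.71 in the stattic group (95% CI -0.15 to 3.57), 2.23 in the IL-10 group (0.35 to 4.12) and 1.86 in the hemin group (-0.00 to 3.73), with edgeR adjusted p of 0.16, 0.0857 and 0.142. The rise of Tnfrsf10b in the IL-10 group was called by DESeq2 (0.018), by the edgeR fit to only the 2 groups compared (0.0124) and with a replicate block (0.047), and that in the hemin group by the fit to only the 2 groups (0.0499). Tnfsf10, which encodes TRAIL, had 8 counts in all.

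The other death domain receptors did not pass the test. Tnfrsf1a was at 86.6, 22.3 and 53.2 CPM in the stattic replicates, 91.4, 72 and 46.7 CPM in the IL-10 replicates and 95.1, 50.3 and 36.5 CPM in the hemin replicates, against 52.1, 66 and 41.7 CPM in the vehicle replicates. Its log2 fold change for hemin over vehicle was 0.19 (95% CI -0.82 to 1.19), against 3.24 for Tnfrsf1b, and the difference between these genes was not tested.

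Tnfrsf21 was at 121, 73.8 and 112 CPM in the stattic replicates, 129, 102 and 74.7 CPM in the IL-10 replicates and 92.8, 97.6 and 105 CPM in the hemin replicates, against 151, 129 and 108 CPM in the vehicle replicates. The hemin libraries lay below the vehicle libraries by a small margin, with a log2 fold change of -0.39 (95% CI -0.94 to 0.15, edgeR adjusted p = 0.283). Ngfr, the neurotrophin receptor p75, was at 3.67, 1.15 and 4.2 CPM in the stattic replicates, 4.64, 5.37 and 2.32 CPM in the IL-10 replicates and 4.66, 7.69 and 5.51 CPM in the hemin replicates, against 4.92, 1.92 and 12.4 CPM in the vehicle replicates. The vehicle libraries of Ngfr spread more widely than any group with hemin.

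Tnfrsf23 and Tnfrsf22, mouse decoy receptors for TRAIL, and Tnfrsf26 are direct neighbours in GRCm38.p6. Tnfrsf23 was at 9.96, 4.5 and 2.16 CPM in the stattic replicates, 10.4, 8.42 and 2.32 CPM in the IL-10 replicates and 7.14, 5.84 and 2.3 CPM in the hemin replicates, against 0.649, 0.548 and 0.667 CPM in the vehicle replicates. Its lowest library with hemin lay above the highest vehicle library. The fold over vehicle was 8.78 in the stattic group (edgeR adjusted p = 0.0106), 11.1 in the IL-10 group (0.00762) and 8.06 in the hemin group (0.0137).

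Tnfrsf26 was at 1.15, 1.47 and 1.92 CPM in the stattic replicates, 0.755, 0.737 and 2.42 CPM in the IL-10 replicates and 0.992, 2.56 and 2.2 CPM in the hemin replicates, against 0.0928, 0.548 and 0.476 CPM in the vehicle replicates. The groups with hemin lay above vehicle, but of the 3 groups hemin alone passed edgeR's test over all 12 libraries (fold 5.01, adjusted p = 0.0339), with 0.0572 in the stattic group and 0.0912 in the IL-10 group. A replicate block called Tnfrsf26 in the stattic group (0.0186) and the IL-10 group (0.0416), and DESeq2 in the stattic group (0.0358). Tnfrsf22 was at 13, 7.86 and 10.4 CPM in the stattic replicates, 10, 8 and 8.89 CPM in the IL-10 replicates and 9.82, 8.1 and 12 CPM in the hemin replicates, against 10.4, 13.7 and 9.43 CPM in the vehicle replicates, and its groups overlapped. In the GENCODE M21 transcripts, Tnfrsf22 and Tnfrsf23 share a run of 306 bases, and 18.0% of the 50-base windows of Tnfrsf23 occur in Tnfrsf22, so how the authors' counting split such reads makes the level of each uncertain. Tnfrsf26 shares none of these windows with either.

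Of the adaptors, Traf3 had the larger difference. Traf3 was at 119, 70 and 53.8 CPM in the stattic replicates, 135, 106 and 80.7 CPM in the IL-10 replicates and 91.1, 80.9 and 76.5 CPM in the hemin replicates, against 140, 137 and 147 CPM in the vehicle replicates. All 9 libraries with hemin lay below the vehicle libraries, although Traf3 was not called (log2 fold change for hemin over vehicle -0.77, 95% CI -1.38 to -0.16, edgeR adjusted p = 0.0691). In the stattic group its adjusted p was 0.0531. DESeq2 called the lower Traf3 level with hemin, at an adjusted p of 0.0469, as did edgeR with a replicate block, at 0.0267, and with only the 2 groups compared, at 0.00609. Library totals, DESeq2 size factors, no filter, limma and the length correction alone did not call it for hemin over vehicle. At 7075 bases Traf3 had the longest transcript of the tested members. Traf2, an adaptor shared by most TRAF-binding receptors, was at 19.5, 9.95 and 22 CPM in the stattic replicates, 19.2, 18.4 and 18.5 CPM in the IL-10 replicates and 20, 17.9 and 17.2 CPM in the hemin replicates, against 23.7, 22.8 and 23.2 CPM in the vehicle replicates. Traf2 also lay below vehicle in all 9 libraries, with a log2 fold change for hemin over vehicle of -0.34 (95% CI -0.92 to 0.25). By limma on log2(FPKM + 1), Traf2 (adjusted p = 0.0436) and Traf3 (0.0203) fell in the stattic group against vehicle.

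**Figure D3:**
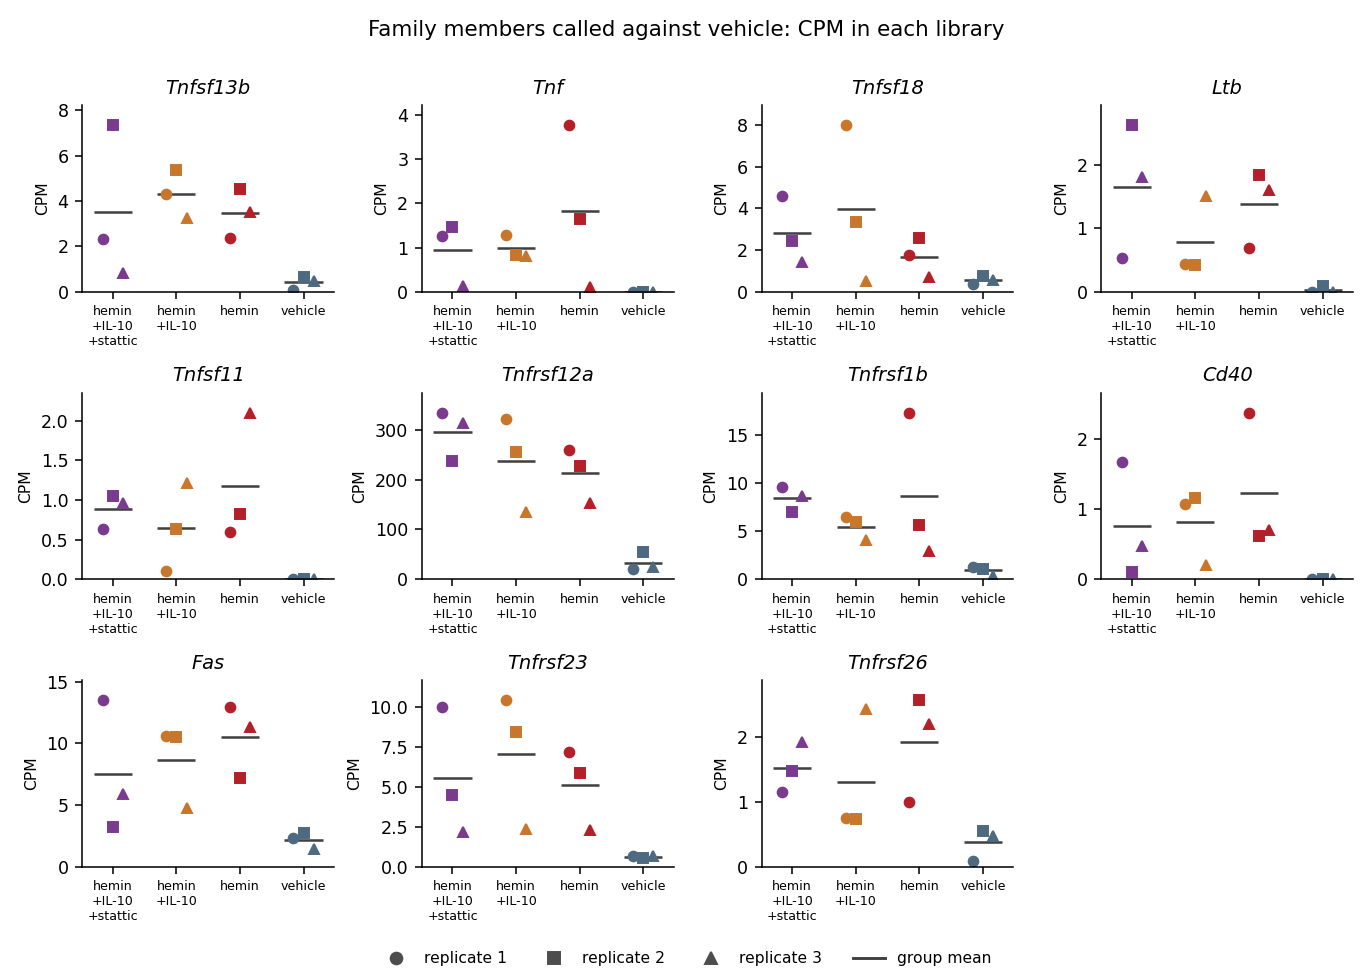
CPM in each library (y axis, 1 scale per gene) for the 11 members called in at least 1 comparison with vehicle, by group along the x axis, with a marker shape per replicate number and a bar at the group mean. Tnf, Cd40 and Tnfsf11 lay at 0 in all vehicle libraries, and Tnfrsf12a lay at 134 to 334 CPM in the 9 libraries with hemin against 19.5 to 53.7 CPM in vehicle.

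**Figure D4:**
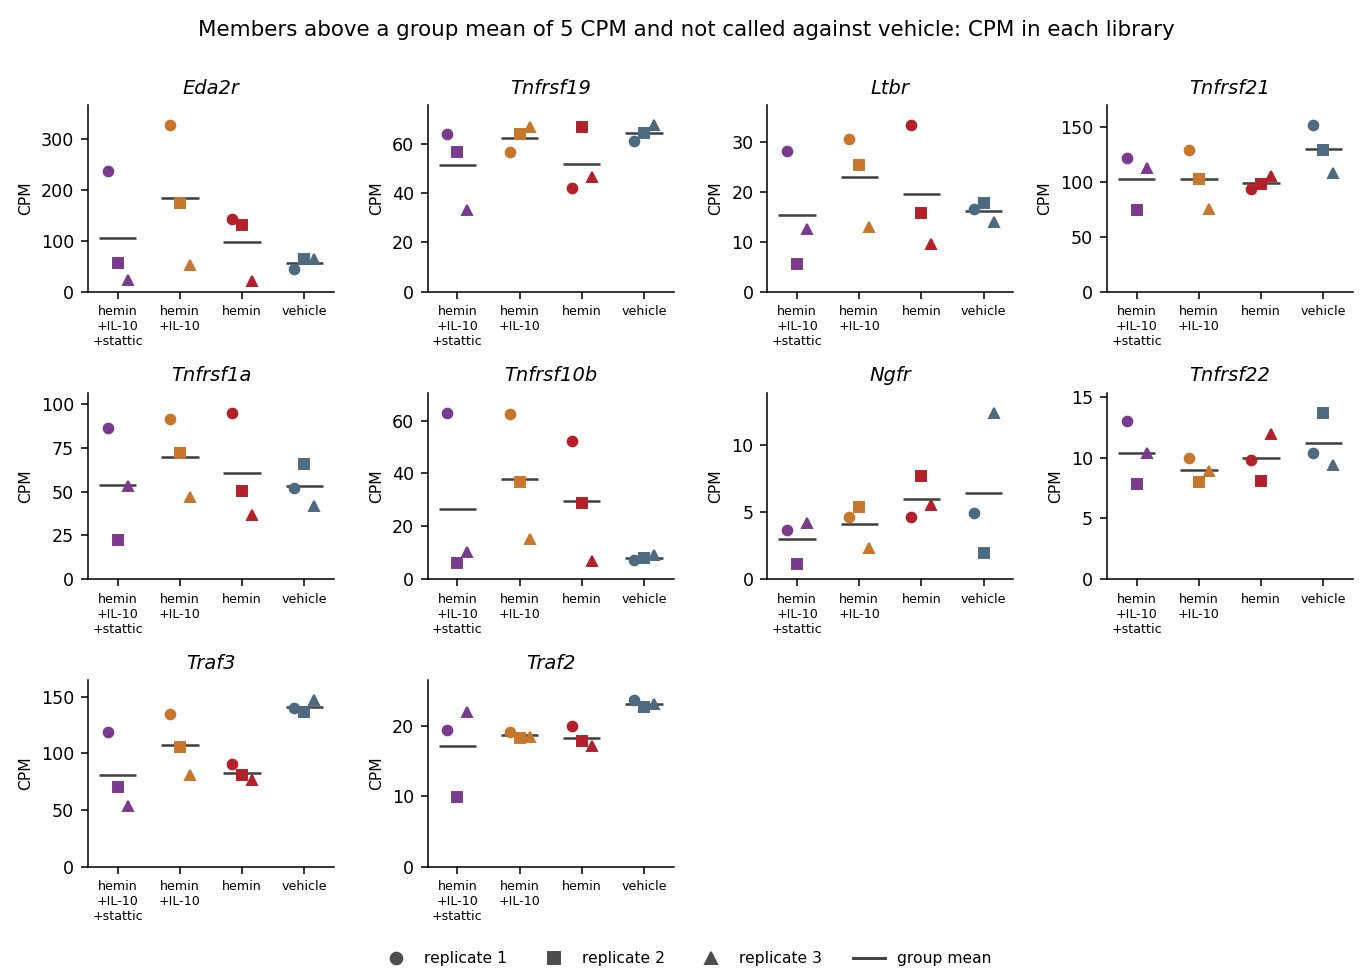
CPM in each library for the 10 members with a group mean of at least 5 CPM that were not called against vehicle, drawn as in the plot of called members. Replicate 1 was the highest library of each group with hemin for Eda2r, Ltbr, Tnfrsf1a, Tnfrsf10b and Traf3, and Traf3 and Traf2 lay below vehicle in all 9 libraries with hemin.

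The calls differed in how far they rested on single libraries. For hemin against vehicle, Tnfrsf12a, Tnfrsf1b, Ltb and Tnfsf11 passed edgeR's test whichever library was left out. Cd40, Tnf, Tnfrsf23 and Tnfrsf26 lost the call without any of vehicle replicates 1, 2 and 3 (adjusted p 0.0506 to 0.116), and Fas and Tnfsf13b without vehicle replicate 1 or 3 (0.0503 to 0.0689). Cd40 lost it without hemin replicate 1 (0.055), Tnfsf13b without hemin replicate 2 (0.0628) and Tnfrsf26 without hemin replicate 2 or 3 (0.115 and 0.0763). Without vehicle replicates 1, 2 and 3 in turn, 4, 6 and 4 members were called. Over all genes, 1370 of 14256, 1626 of 14265 and 1472 of 14277 were then called, against 2917 of 13967 with every library.

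For the IL-10 group against vehicle, Tnfrsf12a and Tnfrsf23 passed edgeR's test whichever library was left out. Without vehicle replicates 1, 2 and 3 in turn, 3, 6 and 3 members were called. Over all genes, 1202, 1697 and 1468 were then called, against 2927 with every library. Tnf, Cd40, Tnfsf18 and Tnfsf11 lost the call without any of the vehicle replicates (adjusted p 0.0501 to 0.129), Fas and Ltb without replicate 1 or 3 (0.0748 to 0.0868), Tnfrsf1b without replicate 3 (0.0648) and Tnfsf13b without replicate 1 (0.0543). Without IL-10 replicate 1, 6 members and 1766 genes in all were called, and Tnf, Cd40, Fas and Tnfsf18 were lost (0.0676 to 0.183). Without IL-10 replicate 2, 4 members and 1272 genes in all were called, and Tnf, Cd40, Fas, Tnfsf18, Tnfrsf1b and Tnfsf11 were lost (0.0515 to 0.0883). Tnf and Ltb were lost without IL-10 replicate 3 (0.0505 and 0.0745), and Tnf and Tnfsf18 without hemin replicate 2 (0.0519 and 0.05).

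For the stattic group against vehicle, Tnfrsf12a, Tnfrsf1b, Ltb, Tnfsf11 and Tnfrsf23 passed edgeR's test whichever library was left out. Cd40, Tnf and Fas lost the call without any of vehicle replicates 1, 2 and 3 (adjusted p 0.0593 to 0.107) and without stattic replicate 1 (0.0542 to 0.123). Tnfsf13b lost it without vehicle replicate 1 or 3 (0.0643 and 0.0512), and Tnf and Tnfsf13b without stattic replicate 2 (0.0735 and 0.0667). Without vehicle replicate 1 or 3, 5 members were called. Over all genes, 1608 and 1758 were then called, against 3472 with every library.

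Transcripts of other cell types moved with hemin. The 19 markers of microglia and macrophages, all of them listed, summed to 147, 301 and 167 CPM in the stattic replicates, 112, 73.1 and 53.9 CPM in the IL-10 replicates and 343, 149 and 105 CPM in the hemin replicates, against 71.4, 73.1 and 31.5 CPM in the vehicle replicates. Of 18 tested, 10 rose in the stattic group, 1 in the IL-10 group and 7 in the hemin group against vehicle. Of all genes, 14.7%, 12.1% and 11.7% were called higher in these groups. Some markers, such as Itgam at 1.11 ± 0.831 CPM and Fcer1g at 1.23 ± 0.831 CPM in vehicle cells (SD, n = 3), passed the filter on low counts through the groups with hemin. These counts are therefore a description. Cx3cr1, P2ry12, Ptprc and Cd68 had counts in all 12 libraries. These cells are known to express Tnf, Cd40, Tnfrsf1b and Tnfsf13b, and their part in the changes of these genes was not tested.

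The 12 endothelial, mural and fibroblast markers summed to 58.4 to 99.4 CPM in the stattic group, 52.2 to 80.6 CPM in the IL-10 group and 82.9 to 230 CPM in the hemin group, against 10.9 to 34.1 CPM in vehicle cells. Of 11 tested, 6 rose with hemin, where 11.7% of all genes were called higher. Pecam1, an endothelial marker, averaged 21.9 ± 9.02 CPM in the hemin group and 0.372 ± 0.0893 CPM in vehicle cells (SD, n = 3). Their part in the changes of the family was not tested either. Lymphocyte markers, of which 6 of 10 were listed and 1 tested, summed to at most 3.25 CPM in any library, and Cd3e had no count. The marker tested, Cd79a, rose with hemin from this low level (1.04 ± 0.642 CPM in the hemin group and 0.0923 ± 0.0928 CPM in vehicle cells, edgeR adjusted p = 0.0286). Cd79a and Pecam1 passed the filter on low counts through the groups with hemin, so a difference was built into their passing.

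Markers of the other brain cells moved less uniformly. Of 10 progenitor markers, 4 fell in the stattic group, 6 in the IL-10 group and 3 in the hemin group against vehicle (median log2 fold change -1.62 for hemin). In each group 1 of 8 tested oligodendrocyte markers (-1.93 for hemin) and 1 of 9 tested astrocyte markers (-0.78 for hemin) fell. Of all genes, 10.2%, 8.81% and 9.15% were called lower in these groups. The oligodendrocyte markers summed to 1490 to 11100 CPM in the stattic group, 1160 to 2480 CPM in the IL-10 group and 327 to 1830 CPM in the hemin group, against 2440 to 6660 CPM in vehicle cells. Myrf, which drives myelin genes, averaged 38.1 ± 23.1 CPM in the hemin group and 270 ± 84.8 CPM in vehicle cells (SD, n = 3; edgeR adjusted p = 0.00623). The astrocyte markers summed to 1150 to 4050 CPM in the stattic group, 922 to 2550 CPM in the IL-10 group and 2090 to 3040 CPM in the hemin group, against 2370 to 6430 CPM in vehicle cells. Of 10 neuron markers 3 rose and 2 fell with hemin, and Nefm, a neurofilament gene, averaged 272 ± 72.9 CPM in the hemin group and 8.6 ± 3.1 CPM in vehicle cells (7.12e-05). The part of these cells in the changes of the family was not tested.

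Adding IL-10 to hemin asks whether the cytokine alters the response. By edgeR, 0 of the 26 tested members were called between the IL-10 and hemin groups, where 0.00% of all genes were called. None of the members had an unadjusted p under 0.05, against 337 of 13967 genes (2.41%), and DESeq2 and limma on FPKM also called 0 members (DESeq2 called 3 genes in all). No member had groups that did not overlap, against 8.68% of all genes (3.61% higher, 5.08% lower). Tnfsf18 had the largest difference, with a log2 fold change of 1.22 (95% CI -0.49 to 2.94), followed by Eda2r at 0.92 (-0.93 to 2.77) and Tnf at -0.90 (-3.06 to 1.26).

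The members with the smallest standard errors bound the effect more closely. Tnfrsf21 had a log2 fold change for IL-10 over hemin of 0.05 (95% CI -0.49 to 0.59), Tnfrsf19 of 0.27 (-0.29 to 0.83) and Traf2 of 0.02 (-0.56 to 0.61). Traf3 followed at 0.37 (-0.24 to 0.98) and Tnfrsf22 at -0.15 (-0.78 to 0.47). Tnfrsf12a was at 0.15 (-0.71 to 1.01). The median distance from a fold change to its interval's bound was 1.34 on the log2 scale. Changes of up to about that size could not be detected for a typical member. As the intervals are not adjusted for the number of genes tested, larger changes could be missed too. The tests therefore do not show that the groups are alike.

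Adding stattic to hemin and IL-10 asks what depends on STAT3. Again 0 of the 26 members were called by edgeR, 0.00% of all genes, and none had an unadjusted p under 0.05, against 523 of all genes (3.74%). DESeq2 and limma on FPKM called 0 members as well. Tnfrsf1b was the only member without overlap, higher at 7.02 to 9.54 CPM in the stattic group against 4.04 to 6.47 CPM in the IL-10 group, a pattern found in 3.15% of all genes, with 2.21% lower and 5.36% in either direction. Its log2 fold change was 0.62 (95% CI -0.66 to 1.90, edgeR adjusted p = 0.921). The widest differences were those of Ltb, at 1.04 (95% CI -0.57 to 2.65), and Eda2r, at -0.81 (-2.66 to 1.03), while Tnfrsf21 was at 0.00 (-0.54 to 0.54).

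The stattic and hemin groups differ by both agents. Here too 0 members were called by edgeR, 0.00% of all genes, 0 members had an unadjusted p under 0.05 against 481 of all genes (3.44%), and DESeq2 and limma on FPKM called 0 members. Ngfr was the only member without overlap, lower at 1.15 to 4.2 CPM in the stattic group against 4.66 to 7.69 CPM in the hemin group, as were 2.25% of all genes, with 2.91% higher and 5.16% in either direction. Its log2 fold change was -0.99 (95% CI -2.38 to 0.41). Tnfrsf12a had one of 0.47 (95% CI -0.40 to 1.33) and Tnfrsf1b one of -0.03 (-1.30 to 1.23). The labels do not say whether libraries with the same replicate number belong together. With such numbers taken as pairs, a replicate block left 0 members called in this comparison and in that of IL-10 with hemin.

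**Figure D5:**
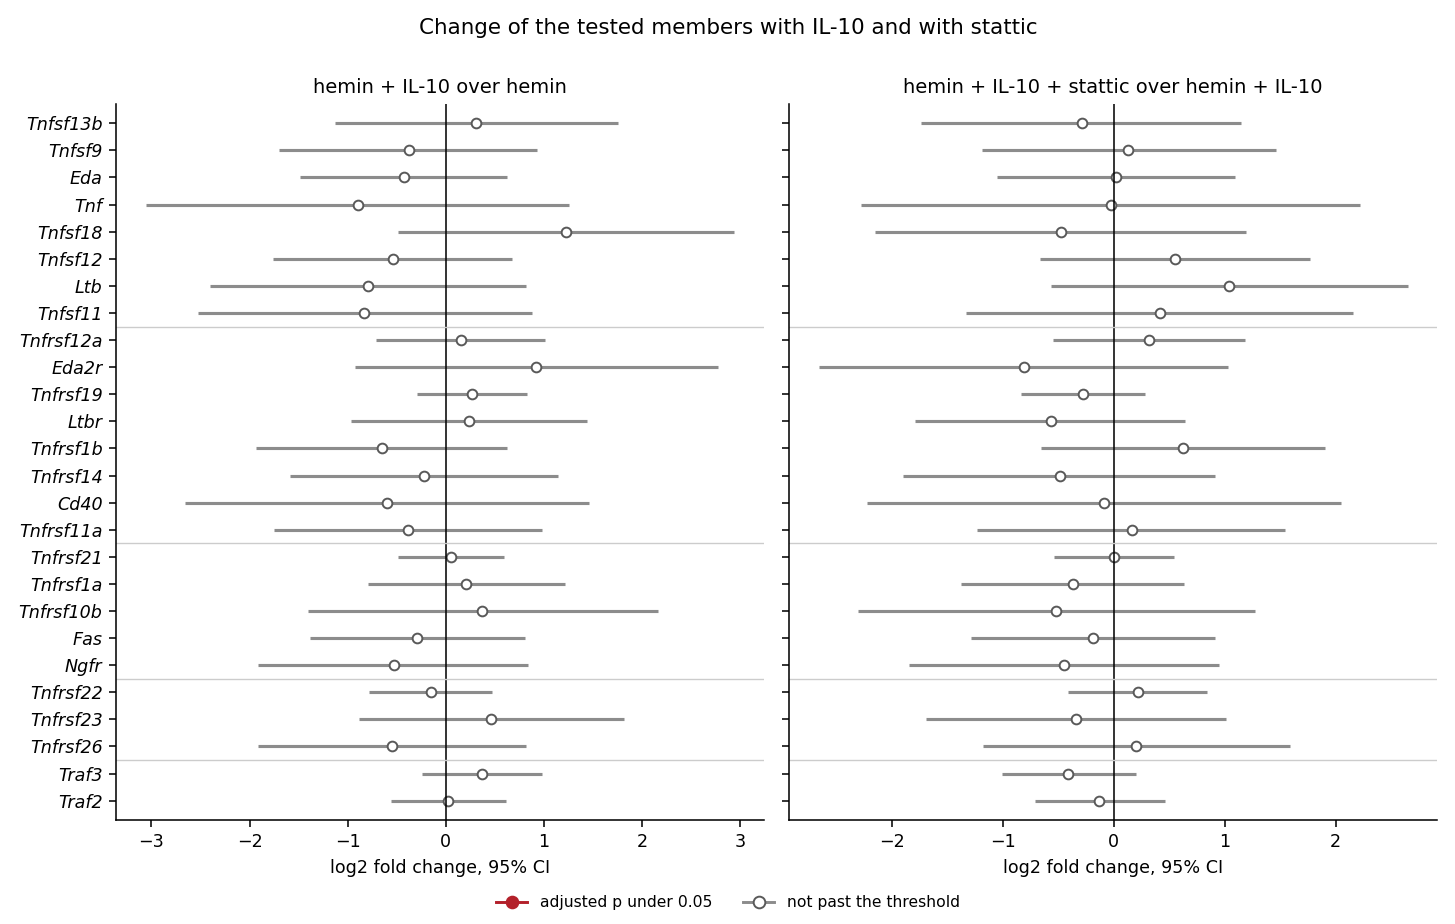
Log2 fold change with its 95% confidence interval (x axis) of the 26 tested members (y axis, in the same blocks as for hemin over vehicle), for the IL-10 group over the hemin group (left) and the stattic group over the IL-10 group (right). No point is filled, since 0 members passed an adjusted p of 0.05, and every interval includes 0.

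The genes through which these receptors act were counted in lists drawn from textbook knowledge. The lists were chosen with earlier results of these data known. Against vehicle, 14.7% of all genes were called higher and 10.2% lower in the stattic group, 12.1% and 8.81% in the IL-10 group, and 11.7% and 9.15% in the hemin group, and a list's count near these shares is not a result about the list. Of 20 genes that TNF is known to induce through NF-kB, 16 were tested, of which 10 rose in the stattic group, 11 in the IL-10 group and 11 in the hemin group against vehicle, and 0 fell. Their median log2 fold change was 4.06 for hemin over vehicle, against 0.03 over all genes tested. Gadd45b, a stress-induced gene, averaged 86.3 ± 33.9 CPM in the hemin group and 1.83 ± 0.866 CPM in vehicle cells (SD, n = 3; edgeR adjusted p = 0.000262). Ptgs2, the inducible prostaglandin synthase, averaged 136 ± 79.3 CPM in the hemin group and 0.769 ± 0.517 CPM in vehicle cells (0.00156). Cxcl10, a chemokine also induced by interferon, averaged 27.5 ± 3.48 CPM in the hemin group and 0.738 ± 0.559 CPM in vehicle cells (0.000462), and Cxcl2, a neutrophil chemokine, 5.44 ± 3.11 CPM in the hemin group with no count in vehicle cells (0.00169). Ptgs2, Cxcl10 and Cxcl2 were so low in vehicle cells that they passed the filter on low counts through the groups with hemin. The counts and median of this list are therefore a description, and a part of TNF in these changes was not tested.

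Of the 14 NF-kB subunits, kinases and inhibitors, 13 were tested, and 5 rose and 0 fell in each of the 3 groups against vehicle (median log2 fold change 0.56 for hemin). Nfkbiz, an atypical nuclear inhibitor of the IkB family, averaged 102 ± 30.3 CPM in the hemin group and 7.52 ± 1.8 CPM in vehicle cells (edgeR adjusted p = 3.68e-05). Relb and Nfkb1 rose with log2 fold changes of 1.66 ± 0.32 and 1.14 ± 0.21 (SE), and Rel with one of 2.15 ± 0.5 (adjusted p 0.00491, 0.00456 and 0.0121).

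Of 28 receptor adaptors, kinases and ubiquitin enzymes, 26 were tested. For hemin against vehicle 5 rose and 4 fell (median -0.32), for IL-10 4 rose and 3 fell, and for stattic 5 rose and 3 fell, in both directions not far from the shares of all genes. Map3k14, the kinase NIK that Traf3 marks for degradation, rose with a log2 fold change of 2.19 ± 0.26 (SE; edgeR adjusted p = 0.000447). Tnfaip3, the feedback inhibitor A20, rose by 2.58 ± 0.45 and Tbk1, a kinase of innate immune signalling, by 1.28 ± 0.28, while Tab1, a partner of the kinase TAK1, fell by 1.17 ± 0.27 on the log2 scale (adjusted p 0.00315, 0.0102 and 0.0109).

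Of 16 death signalling genes 15 were tested, and 2 rose and 0 fell in each group against vehicle (median 0.22 for hemin), which is close to the share of all genes called higher. Those named for hemin were Mlkl, the pore-forming effector of necroptosis, at 4.11 ± 2.97 CPM in the hemin group and 0.434 ± 0.267 CPM in vehicle cells, and Ripk3, the kinase that activates it, at 2.04 ± 1.25 CPM and 0.277 ± 0.181 CPM (edgeR adjusted p 0.00968 and 0.0197). Mlkl and Ripk3 were so low in vehicle cells that they passed the filter on low counts through the groups with hemin. Their p-values are therefore a description. Casp8, the caspase that death receptors activate, had a log2 fold change of 1.07 ± 0.71 (SE) and was not called (0.302).

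Of 8 family genes outside the naming rule 5 were tested, and 2 rose in the stattic group, 0 in the IL-10 group and 2 in the hemin group against vehicle, with 0 lower. In the hemin group these were Traf5, an adaptor at 7.53 ± 0.939 CPM against 2.19 ± 0.916 CPM in vehicle cells, and Relt, a receptor at 23 ± 1.83 CPM against 12.6 ± 1.63 CPM (edgeR adjusted p 0.0141 and 0.0383). Between groups that both received hemin, 0 genes of these 5 lists were called.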

How the data were processed

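Per the labels' protocols, second-strand synthesis used dUTP and sequencing ran on DNA nanoballs. The tools listed in the submitters' processing notes, without role or order, are RSEM, StringTie, Cufflinks, Bowtie, Bowtie2, HISAT, TopHat and CASAVA, and the genome build and the use of strand in counting are not given in the sources used here. Per the file headers, the authors deposited for each gene an expected count, not normalized, an FPKM value, scaled by the authors for transcript length and depth, and a transcript length in bases. Files list only genes above 0, and a missing gene was taken as 0.

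Expected counts were rounded and tested with edgeR 4.0.16 (R 4.3.3): filterByExpr, TMM scaling, a robust quasi-likelihood fit of all 12 libraries with 1 mean per group, and Benjamini-Hochberg adjustment over 13967 genes with a threshold of 0.05. The script was tested on simulated data. CPM use TMM-scaled totals. DESeq2 1.42.0, limma 3.58.1 on log2(FPKM + 1) of genes at 0.5 FPKM or more in 3 or more libraries, other scalings and filters, a length correction, a replicate block and leaving out libraries were alternatives.

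Per-library values are given for members called in a comparison or at a group mean of at least 5 CPM, and from each other list the 4 genes with the smallest adjusted p for hemin against vehicle could be named, besides a few defining cell type markers. The members, lists and tests were chosen with earlier results of these data known. For libraries that share a replicate number, the departures from the group means had correlations of 0.37, 0.17 and 0.61 between the IL-10 and hemin groups and of 0.35, 0.39 and 0.17 between the stattic and hemin groups, where the numbers of the labels were taken as pairing the libraries. What a shared number stands for is not given in the labels.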

Additional observations from a re-analysis of the deposited data

How the results depend on the processing

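Counts of called members against vehicle were 9, 10 and 10 in the stattic, IL-10 and hemin groups, and no called change reversed under any alternative. Of all 13967 genes tested, 3472, 2927 and 2917 were called. Limma on log2(FPKM + 1) gave 5, 5 and 5, and without its filter 4, 2 and 6, all higher except Traf2 and Traf3 with the filter and Traf3 without it, lower in the stattic group. Over all genes limma called 3350, 2699 and 2757 of 13758, and without its filter 3001, 2381 and 2578 of 18876. Fits to only the 2 groups compared gave 4 for stattic, 6 for IL-10 and 8 for hemin, testing fewer members (20, 18 and 19), and of the hemin calls Traf3 was lower. Over all genes they called 1650, 4255 and 4346. Leaving out 1 library at a time gave 5 to 12 for stattic, 3 to 11 for IL-10 and 4 to 12 for hemin. Over all genes these fits called 1608 to 3864, 1202 to 4227 and 1309 to 4256. DESeq2 gave 13, 11 and 12, with Traf3 lower in the stattic and hemin groups, and a length correction 7, 10 and 10. Over all genes DESeq2 called 4420, 3908 and 3917, and the length correction 3337, 3667 and 3688. Tnfrsf12a was called in each of these fits. For the other members the cause of a lost call was not tested.

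The replicate block gave 12 members for stattic, 12 for IL-10 and 11 for hemin against vehicle, and 10, 12 and 11 with the length correction. Each time Traf3 was lower in the stattic and hemin groups. Over all genes the block called 4422, 3929 and 4000, and with the length correction 4791, 5171 and 5085. Same-numbered libraries did not deviate together in every pair with vehicle (correlations 0.05 to 0.37 over these comparisons). Between the stattic and IL-10 groups they correlated at 0.64, -0.05 and 0.48. Between groups that both received hemin, 0 members were called under every alternative, the block included, which called 1 gene in all for IL-10 over hemin and 1 for stattic over hemin. With library totals in place of TMM, the median log2 fold change of all genes was -0.14 in place of 0.10 for stattic over vehicle and -0.13 in place of 0.00 for IL-10 over vehicle, and relative to it the called members kept their direction. Members near 0.1 CPM rest on single reads, and the depth sets no closer limit for them.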

Other observations

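Some members followed the replicate number in the libraries with hemin, a pattern chosen after the values were seen. In 10 of the 26 tested members, Eda, Eda2r, Fas, Ltbr, Tnfrsf10b, Tnfrsf12a, Tnfrsf1a, Tnfrsf1b, Tnfrsf23 and Traf3, replicate 1 was the highest library of each of the 3 groups with hemin. The same held for 12.2% of the 13967 genes tested. Eda2r spanned 22 to 237 CPM within the stattic group, 52.9 to 326 CPM within the IL-10 group and 20.2 to 143 CPM within the hemin group, against 44.3 to 63.8 CPM in vehicle cells. Tnfrsf10b spanned 6.28 to 62.9 CPM within the stattic group, 15 to 62.4 CPM within the IL-10 group and 7.01 to 52.3 CPM within the hemin group, against 7.05 to 9.05 CPM in vehicle cells.

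The ligand genes of some receptors were scarcely detected, in pairs also chosen after the values were seen. Tnfrsf10b was at 2.03 to 19.53 FPKM in libraries with hemin, while Tnfsf10, the gene of its ligand TRAIL, had 8 counts over the 12 libraries. Tnfsf13b rose against vehicle, while its receptor genes Tnfrsf13b, Tnfrsf13c and Tnfrsf17 had 28, 37 and 1 counts. Whether ligand from other cells was present in these cultures was not measured.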
